A study of Mus musculus with 8 samples.

Results

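Mitochondria carry a ribosome of their own, the mitoribosome, which translates the few proteins that mitochondrial DNA encodes. All of these are core subunits of the respiratory chain and of ATP synthase. Every protein of the mitoribosome is encoded in the nucleus, made in the cytosol and imported, and most belong to a large subunit that forms peptide bonds (Mrpl genes) or a small subunit that reads the message (Mrps genes). Hepatocytes are rich in mitochondria and use them for fatty acid oxidation, urea synthesis and gluconeogenesis.

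The genes described here were chosen by name: every gene whose probe accession maps to a mouse symbol made of Mrpl or Mrps and a number, pseudogenes left out. There were 78 such genes, 49 Mrpl and 29 Mrps, of 21368 genes named on the array, and 100 probes measured them. Of these, 77 could be tested among 11072 genes, each with a probe that the scanning software marked as well above background in 4 or more of the 8 hybridisations. The probe of *Mrpl21* carried this mark on none. Of the tested members, 75 were well above background on all 8 arrays. The exceptions were *Mrpl35*, with 4 hCNR1+/+ and 3 hCNR1-/- arrays, and *Mrpl1*, with 3 and 4.

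Hepatocytes were isolated from untreated male mice of 12 to 14 weeks on standard diet, and 200 ng of total RNA per sample was labelled with the dye Cy3 for 1-colour arrays. The hCNR1+/+ group (genotype hCNR1_WT, strain CNRO) and the hCNR1-/- group (genotype hCNR1_cKO, strain CNRO Alb-Cre) were littermates from crosses of albumin-Cre mice with CNR1flox/flox mice, so that *Cnr1*, the gene of the cannabinoid 1 receptor, is deleted in cells in which the albumin promoter is active. By the strain labels, presence of Cre and loss of *Cnr1* cannot be told apart, and nothing in the labels says whether hepatocytes of several animals were pooled.

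The comparison addresses how loss of the receptor changes hepatocyte transcripts. The 1 probe of *Cnr1* was not well above background in either genotype (0 of 4 and 0 of 4 arrays), so on these arrays genotype rests on the labels. The study also measured *Cnr1* mRNA in hepatocytes isolated from both genotypes. All arrays lay on 1 slide, hCNR1+/+ in row 1 and hCNR1-/- in row 2, so row and genotype cannot be told apart. All 10 hepatocyte markers were well above background on all 8 arrays, and their mean level per array ran from 8.37 to 8.99 in hCNR1+/+ and from 8.46 to 8.83 in hCNR1-/-. Of these markers 5 lay above 0, and *Apob* was higher in hCNR1-/- (log2 fold change 1.63, limma adjusted p = 0.0477), while *Ass1* had -1.14 (limma adjusted p = 0.08). All 8 of the 10 Kupffer cell markers that could be tested had lower means in hCNR1-/- hepatocytes. Their mean level per array ran from 1.02 to 2.38 in hCNR1+/+ and from -0.07 to 1.02 in hCNR1-/-, *Marco* alone passed the test (log2 fold change -2.41, limma adjusted p = 0.0336), and *Timd4* carried the mark on 0 arrays. Of 6 lymphocyte markers 2 were tested, *Cd3e* and *Nkg7*, with a mean level of 2.25 to 2.77 in hCNR1+/+ and of 2.68 to 4.04 in hCNR1-/-, the highest on replicate 4, and neither passed the test. In bulk RNA, fewer cells of a type and less RNA per cell cannot be told apart, and the part of these cell types in the results below was not tested. Replicate 4 of hCNR1-/- stood apart. Its 75th percentile of intensity was 29.3, against 62.0 to 139 on the other arrays, 28.6% of its spots were well above background, against 35% to 42.3%, and its mean correlation with its own group was 0.942, against 0.972 to 0.975 for the other hCNR1-/- arrays. Counts over the members are given with and without it, as are the single values that it moves most.

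Levels are log2 intensities minus the 75th percentile of the array, and a log2 fold change is hCNR1-/- minus hCNR1+/+. Transcripts of the mitoribosome were, in the middle of the list, slightly more abundant in hCNR1-/- hepatocytes. The median log2 fold change was 0.29 over the 77 members and 0.08 over all tested genes. It was above 0 for 54 members (70.1%), where the share over all tested genes was 56.6%. In the fit across all genes, 5 members (6.49%) were higher at a limma adjusted p below 0.05, where 2.94% of all genes were, and 0 were lower, where 1.3% were. At an unadjusted p below 0.05, 17 members (22.1%) were higher and 2 lower, against 14.7% and 6.92% of all genes. Levels in the 4 hCNR1-/- arrays all lay above those in the 4 hCNR1+/+ arrays for 19 members (24.7%), against 12.7% of all genes, and all below for 2 members, against 5.04%. No member passed a fold change above 2 with p below 0.05, where 4.78% of all genes did so upward and 3.75% downward. Members were brighter on average than all tested genes (4.47 against 2.25 on replicate 1 of hCNR1+/+). With the background mark required on each hybridisation, 75 members and 8371 genes remained, with medians of 0.29 and 0.14, closer together than above. Of these members 53 lay above 0, against 62.1% of these genes, and 19 did not overlap upward, against 14.6%. At a limma adjusted p below 0.05, 6 were higher, against 4.07%, and at an unadjusted p 20, against 17.5%.

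Counts over all tested members depended on the scaling between arrays. With no scaling the median was -0.27 over members and -0.47 over all genes, and 13 members (16.9%) lay above 0, against 17.4% of all genes. Leaving out the scaling lowers every gene by the same amount, so the gap between both medians is fixed and the sign of the members' median is relative to the scaling. At an unadjusted p below 0.05, 9 members were higher and 4 lower after quantile normalization, where 10.7% and 8.39% of all genes were. The counts were 10 and 5 after scaling on bright probes (8.47% and 13.2% of all genes) and 10 and 3 from the deposited z-scores (7.36% and 6.57%). With no scaling they were 0 and 0 (0.786% and 5.69%), and after median scaling 0 and 0 (5.13% and 3.27%). Under each of these, and after median scaling, 0 members were called at a limma adjusted p below 0.05. After median scaling 0.226% of all genes were called higher and 0.226% lower, on bright probes 0.912% and 1.89%, and from the z-scores 0.271% and 0.461%. With no scaling 0.00903% of all genes were called higher and 0.262% lower, and 0.551% and 6.37% did not overlap between genotypes, with 0 members in each. After quantile normalization 1.18% of all genes were called higher and 0.786% lower. Upward, 15 members (19.5%) did not overlap, against 9.66% of all genes, and downward 5 (6.49%), against 7.33%. Quantile normalization left 45 members (58.4%) above 0, against 48.9% of all genes.

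**Figure D1:**
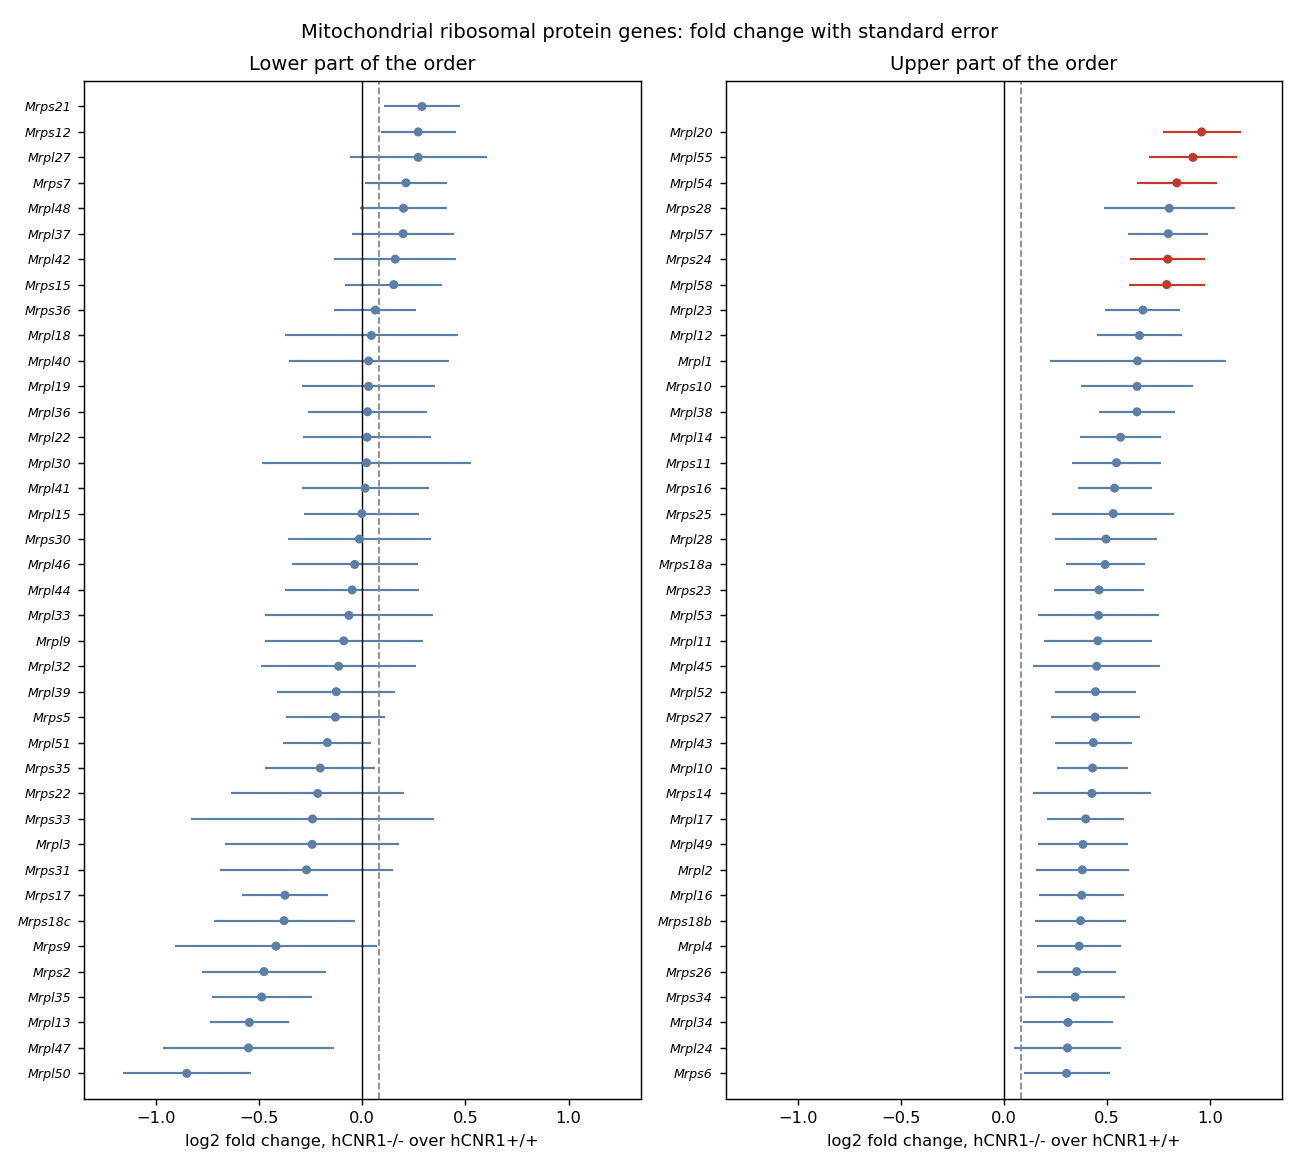
Log2 fold change (hCNR1-/- over hCNR1+/+, x axis) with its limma standard error for the 77 tested members, ordered by value in 2 panels. Red marks the 5 members with an adjusted p below 0.05, the solid line marks 0 and the dashed line the median of all tested genes, 0.08; the members run from -0.85 (*Mrpl50*) to 0.96 (*Mrpl20*).

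*Mrpl20*, the counterpart of bacterial ribosomal protein bL20 in the large subunit, had the largest fold change of the members. On the hCNR1+/+ arrays, in the order of replicates 1 to 4 used throughout, its levels were 7.0, 7.22, 7.08 and 6.87. On the hCNR1-/- arrays they were 8.10, 8.17, 7.84 and 7.89. The groups did not overlap, and replicate 4 of hCNR1-/- lay with its group. The log2 fold change was 0.96 (SE 0.189, fold change 1.94, limma adjusted p = 0.0303). In the exact two-sided permutation test it reached p = 0.0286, the smallest that 4 against 4 arrays allow.

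*Mrpl55* and *Mrpl54* encode large-subunit proteins that bacterial ribosomes lack. For *Mrpl55* the levels were 5.63, 5.35, 5.63 and 5.07 in hCNR1+/+ and 6.28, 6.60, 6.32 and 6.15 in hCNR1-/-. Its log2 fold change was 0.92 (SE 0.213, limma adjusted p = 0.047). For *Mrpl54* they were 5.76, 6.24, 5.89 and 5.92 in hCNR1+/+ and 6.78, 6.79, 6.62 and 6.96 in hCNR1-/-. This gave a log2 fold change of 0.84 (SE 0.195, limma adjusted p = 0.0471). Neither gene had overlapping groups, and *Mrpl54* was highest on replicate 4 of hCNR1-/-, the dimmest array.

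*Mrps24*, the counterpart of bacterial uS3, was the called member of the small subunit. Its levels were 5.11, 5.41, 5.28 and 5.25 in hCNR1+/+ and 6.0, 6.15, 5.90 and 6.17 in hCNR1-/-, with a log2 fold change of 0.79 (SE 0.182, limma adjusted p = 0.0455). *Mrpl58*, also known as Ict1, is a peptidyl-tRNA hydrolase related to release factors that became part of the large subunit. Its levels were 6.19, 6.31, 6.25 and 6.20 in hCNR1+/+, an SD of 0.0571 (n = 4), and 6.82, 7.25, 7.0 and 7.04 in hCNR1-/-. The log2 fold change was 0.79 (SE 0.183, limma adjusted p = 0.047). Both genes separated the genotypes on every array.

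The adjusted p of these 5 genes lay just under the threshold. Each was positive under all 24 alternatives of processing, and each was called under 8 of them. The mean of probes and each probe on its own are among the 8, and could not change the fold change of a gene with 1 probe. Leaving out replicate 4 of both genotypes, also among them, was chosen after seeing the data. With any 1 of the 7 arrays other than hCNR1-/- replicate 4 left out, 0 members were called, where 0.117% to 1.29% of all genes were called higher. For *Mrpl20* the log2 fold change ran from 0.40 to 1.02 and the adjusted p from 0.00236 to 0.876. For *Mrps24* the log2 fold change ran from 0.24 to 0.85 and the adjusted p from 0.00486 to 0.916.

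**Figure D2:**
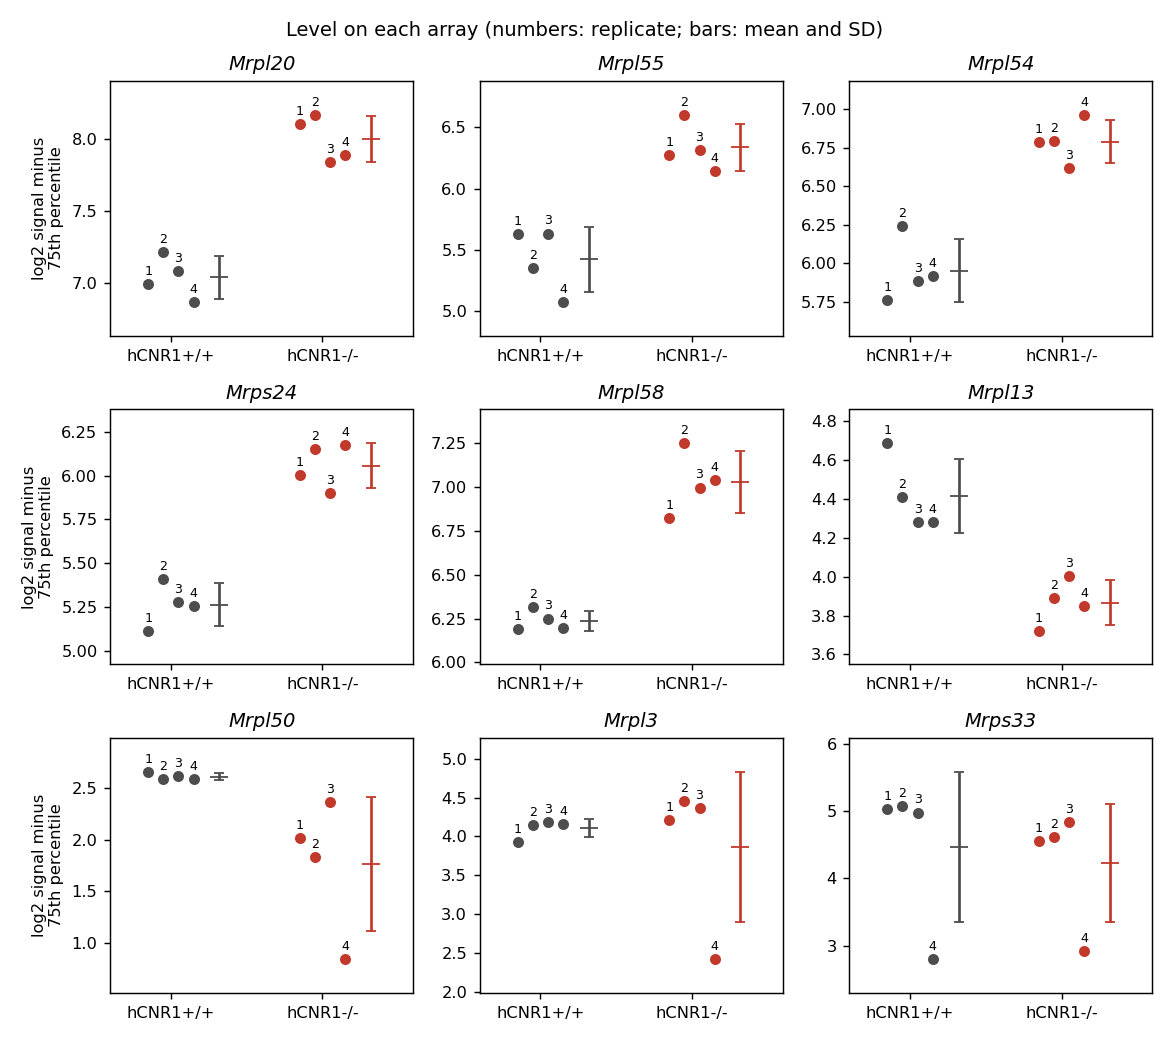
Level on each array (log2 intensity minus the array's 75th percentile, y axis) for the 5 called members, for *Mrpl13* and *Mrpl50*, and for *Mrpl3* and *Mrps33*; each panel has its own y range. Points are arrays, numbered by replicate, and bars give the mean and SD (n = 4): the called members separate the genotypes on all 8 arrays, while replicate 4 of hCNR1-/- lies far below its group for *Mrpl50* and *Mrpl3*, and both replicates 4 do for *Mrps33*.

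Start regions of the called members are shown because genes of the mitoribosome are known targets of the factors NRF1, GABPA (an ETS factor) and YY1. The sequences are those of RefSeq for build GRCm38.p6, which is newer than the build of the array design. Each runs 5′ to 3′ on the strand of its gene, and capitals mark the ETS core CCGGAAG. *Mrpl20* lies at chr4:155802758-155802887 on the plus strand, *Mrpl55* at chr11:59202432-59202495 on the plus strand, *Mrpl58* at chr11:115403632-115403761 on the plus strand and *Mrps24* at chr11:5707692-5707821 on the minus strand. Each stretch ends 10 bases into the gene and starts 120 bases before it, or 54 for *Mrpl55*. *Mrpl54* is named only.
Mrpl20: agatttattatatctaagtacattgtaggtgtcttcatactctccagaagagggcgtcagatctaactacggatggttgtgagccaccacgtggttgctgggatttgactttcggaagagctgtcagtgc
Mrpl55: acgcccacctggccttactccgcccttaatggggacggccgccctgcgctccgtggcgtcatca
Mrpl58: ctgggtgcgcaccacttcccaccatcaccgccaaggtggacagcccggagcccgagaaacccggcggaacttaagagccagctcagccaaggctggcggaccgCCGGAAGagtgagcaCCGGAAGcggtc
Mrps24: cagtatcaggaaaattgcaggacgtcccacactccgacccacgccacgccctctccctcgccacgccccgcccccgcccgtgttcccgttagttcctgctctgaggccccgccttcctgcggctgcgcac

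*Mrpl58* held the ETS core at both positions -17 and -2 from its start. *Mrps24* held a YY1 core at 37 bases into the gene, beyond the stretch shown. *Mrpl20* and *Mrpl55* held none of the 3 motifs in the full 300 bases searched, 250 before the start and 50 after, which says only that these letters are not in that window. Among 68 tested members with a RefSeq start region, 25 (36.8%) held CCGGAAG on either strand, against 9.93% of 27025 start regions of all genes. The YY1 core AAGATGGC was in 12 (17.6%, against 3.19%) and the NRF1 core GCGCATGCG in 7 (10.3%, against 1.95%). Any of the 3 was in 37 members (54.4%), against 14.1% of all genes. The 27025 start regions include genes that were not tested on these arrays, while the 68 members all were. The 2 sets are thus unlike in expression, and the share over tested genes alone was not counted. The ETS core ends with the 3 letters that open the YY1 core, so a match to each can share bases.

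Fold changes of members with and without each motif are given as a description, with no test. The median log2 fold change was 0.31 with the ETS core and 0.20 without it. It was 0.24 with and 0.30 without the YY1 core, and 0.02 with and 0.29 without the NRF1 core. Of the called members with a start region, 1 held the ETS core and 3 did not. A match in the letters is a description of the sequence and does not show that a factor binds there.

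Other members among the largest fold changes did not pass the threshold. *Mrpl57*, a large-subunit protein specific to mitochondria, had levels of 6.89, 7.22, 7.12 and 6.82 in hCNR1+/+ and 7.85, 7.97, 7.81 and 7.61 in hCNR1-/-. Its log2 fold change was 0.80 (SE 0.193, limma adjusted p = 0.0515), with no overlap. *Mrpl23*, which lines the polypeptide exit tunnel, had 0.67 (SE 0.182, limma adjusted p = 0.0692). *Mrpl38*, of the central protuberance, had 0.64 (SE 0.183, limma adjusted p = 0.0782). *Mrps28*, a small-subunit protein, had 0.80 with a larger error (SE 0.317, limma adjusted p = 0.182), since replicate 4 of hCNR1-/- lay at 5.03 and replicates 1 to 3 at 6.08, 6.28 and 6.42. *Mrps10* showed the same, at 5.15 against 6.05, 6.35 and 6.18 (log2 fold change 0.65, limma adjusted p = 0.209).

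The stalk of the large subunit, which recruits translation factors, is built on Mrpl10, Mrpl11 and Mrpl12. *Mrpl12* had 6.33, 6.35, 6.29 and 6.49 in hCNR1+/+ and 7.10, 6.98, 6.67 and 7.34 in hCNR1-/-, a log2 fold change of 0.66 (SE 0.205, limma adjusted p = 0.103). *Mrpl10* had 4.23, 4.22, 4.14 and 4.15 against 4.57, 4.69, 4.50 and 4.70, a log2 fold change of 0.43 (SE 0.174, limma adjusted p = 0.19). Both were free of overlap, and neither passed the adjusted threshold. *Mrpl11* had 0.45 (SE 0.263, limma adjusted p = 0.35), and replicate 4 of hCNR1-/- lay at 5.65, below all other arrays.

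The 5 proteins around the peptidyl transferase centre, where bonds are made, included *Mrpl3*, and 4 of the 5 genes lay above 0 with a median log2 fold change of 0.36. Over all tested genes 56.6% lay above 0, with a median of 0.08. None of the 5 genes passed the test. *Mrpl3* had 3.93, 4.15, 4.18 and 4.17 in hCNR1+/+ and 4.21, 4.46, 4.37 and 2.42 in hCNR1-/-. Its log2 fold change was -0.24 (SE 0.422, limma adjusted p = 0.766), although the other 3 hCNR1-/- arrays all lay above hCNR1+/+, and without replicate 4 of hCNR1-/- it was 0.24 (limma adjusted p = 0.303).

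Members of the exit tunnel, through which the new chain leaves, were above 0 in 5 of 7 genes (median 0.31), and those of the central protuberance in 5 of 6 (median 0.12). Over all tested genes 56.6% lay above 0 (median 0.08). Among the tunnel genes, *Mrpl45*, which binds the mitochondrial inner membrane, had 0.45 (SE 0.308, limma adjusted p = 0.432). *Mrpl44*, which carries a fold like RNase III, had -0.05 (SE 0.326, limma adjusted p = 0.947), and 0.29 without replicate 4 of hCNR1-/-. In the small subunit head and decoding group 4 of 5 genes were above 0 (median 0.27). *Mrps12*, the counterpart of uS12 at the decoding centre, had 6.24, 6.28, 6.31 and 6.27 in hCNR1+/+ and 6.49, 6.75, 6.36 and 6.59 in hCNR1-/-. The change was small, at 0.27 (SE 0.181, limma adjusted p = 0.42), yet the groups did not overlap.

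The Mrps18 genes are 3 paralogues of bacterial S18 whose proteins take different places. *Mrps18a*, found in the large subunit, had 5.50, 5.69, 5.46 and 5.50 in hCNR1+/+ and 6.24, 6.16, 5.90 and 5.81 in hCNR1-/-, at 0.49 (SE 0.191, limma adjusted p = 0.176). *Mrps18b* had 0.37 (SE 0.219, limma adjusted p = 0.361) and *Mrps18c* -0.38 (SE 0.342, limma adjusted p = 0.555). *Mrps18c* ran from 2.15 to 3.53 in hCNR1+/+ and from 1.95 to 2.74 in hCNR1-/-, so its groups overlapped widely. None of the 3 passed the test, and differences between the paralogues were not tested.

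By subunit the members looked alike in the middle. Of 50 large-subunit genes 36 were above 0 (median 0.29, 4 called higher), and of 26 small-subunit genes 17 were (median 0.30, 1 called higher). Genes with a bacterial counterpart had a median of 0.30 (33 of 46 above 0, 2 called), and those specific to mitochondria 0.27 (20 of 30 above 0, 3 called). Over all tested genes 56.6% lay above 0 (median 0.08) and 2.94% were called higher. *Mrps30*, another protein of the large subunit despite its symbol, had -0.01 (SE 0.347), and 0.35 without replicate 4 of hCNR1-/-. *Mrps36*, since assigned to the 2-oxoglutarate dehydrogenase complex and left out of both subunits, had 0.06 (SE 0.198). *Mrps22* and *Mrps34*, whose loss causes combined respiratory chain deficiency, had -0.22 (SE 0.42) and 0.34 (SE 0.242), or 0.08 and 0.18 without that array. Without replicate 4 of both genotypes they had -0.28 and 0.28. *Mrps27*, a pentatricopeptide repeat protein, had 0.44 (SE 0.216).

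Of the 23 members below 0, none was called, and 15 of them lay above 0 without replicate 4 of hCNR1-/-, where 9 members were below 0. *Mrps33*, *Mrps22* and *Mrpl33*, low on both replicates 4, were among these 15. Without replicate 4 of both genotypes they were below 0 again, at -0.36, -0.28 and -0.13. *Mrpl50*, a large-subunit protein specific to mitochondria, had the lowest fold change. Its levels were 2.66, 2.59, 2.62 and 2.59 in hCNR1+/+ and 2.02, 1.83, 2.37 and 0.84 in hCNR1-/-. The log2 fold change was -0.85 (SE 0.31, limma adjusted p = 0.152), and the groups did not overlap. Without replicate 4 of hCNR1-/- it was -0.54 (limma adjusted p = 0.0657), and that of *Mrpl13*, described next, was -0.54 as well. *Mrpl13*, the counterpart of uL13, had 4.69, 4.41, 4.28 and 4.28 against 3.72, 3.89, 4.0 and 3.85. Its log2 fold change was -0.55 (SE 0.19, limma adjusted p = 0.135), and it was the other member with all hCNR1-/- arrays below. *Mrpl47*, counterpart of uL29, spread from 0.37 to 2.03 in hCNR1+/+ and from 0.35 to 1.53 in hCNR1-/-, at -0.55 (SE 0.416, limma adjusted p = 0.477). *Mrps2*, *Mrps9*, *Mrps18c*, *Mrps17* and *Mrps31*, all of the small subunit, had -0.48, -0.42, -0.38, -0.37 and -0.27. Without replicate 4 of hCNR1-/- these were -0.18, 0.16, -0.21, -0.28 and 0.18, so *Mrps9* and *Mrps31* were below 0 only with that array.

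*Mrpl50* shares its start region with a gene on the other strand, as does *Mrps11*, which faces *Mrpl46* with 42 bases between the starts. Both stretches between starts are given for the contrast of the pairs, with 10 bases into the member named. *Mrpl50* lies at chr4:49521074-49521175 on the minus strand and *Mrps11* at chr7:78783090-78783140 on the plus strand (GRCm38.p6, RefSeq). No capitals are used, since neither stretch held a motif searched for.
Mrpl50: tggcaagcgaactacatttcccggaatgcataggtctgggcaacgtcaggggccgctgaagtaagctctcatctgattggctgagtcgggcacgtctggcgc
Mrps11: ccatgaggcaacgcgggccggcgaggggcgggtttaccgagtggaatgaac

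*Mrps11* had 2.03, 1.95, 2.05 and 1.88 in hCNR1+/+ and 2.61, 2.28, 2.25 and 2.94 in hCNR1-/-, at 0.55 (SE 0.215, limma adjusted p = 0.179). *Mrpl46* had 2.51, 2.61, 2.38 and 2.64 against 2.92, 2.80, 2.72 and 1.56, at -0.04 (SE 0.306, limma adjusted p = 0.958), and 0.28 without replicate 4 of hCNR1-/-. The pair parted on replicate 4 of hCNR1-/-, where *Mrps11* was highest and *Mrpl46* lowest. The neighbour of *Mrpl50*, *Zfp189*, starts 93 bases away and had 0.97 (SE 0.324, limma adjusted p = 0.122), opposite in sign to *Mrpl50*. Counting each of *Mrps11* and *Mrpl46* as the other's neighbour, 20 members had a divergent neighbour with a start within 300 bases, and 18 such neighbours were tested. Of these, 10 had the sign of the member and 0 were called.

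Replicate 4 of hCNR1-/- set much of the spread. Measured from the hCNR1+/+ mean of each gene, the members had a median deviation of 0.39, 0.44 and 0.36 for hCNR1-/- replicates 1 to 3 and -0.14 for replicate 4. Over all tested genes these medians were 0.18, 0.23, 0.13 and -0.18. The number of members above their hCNR1+/+ mean was 66, 67 and 68, and 31 in replicate 4, with no such count made over all genes. For 36 members (46.8%) this array was the lowest of the 8, where 38.9% of all tested genes had it lowest. For 13 members (16.9%) it was the highest, against 21.3% of all tested genes. It lay more than 1 log2 unit below the mean of its group's other arrays for 29 members, such as *Mrps9* (-0.19 against 2.13 to 2.14) and *Mrpl30* (2.31 against 4.55 to 4.66). The median SD of the members was 0.35 in hCNR1-/- and 0.17 in hCNR1+/+, against 0.45 and 0.29 over all tested genes.

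**Figure D3:**
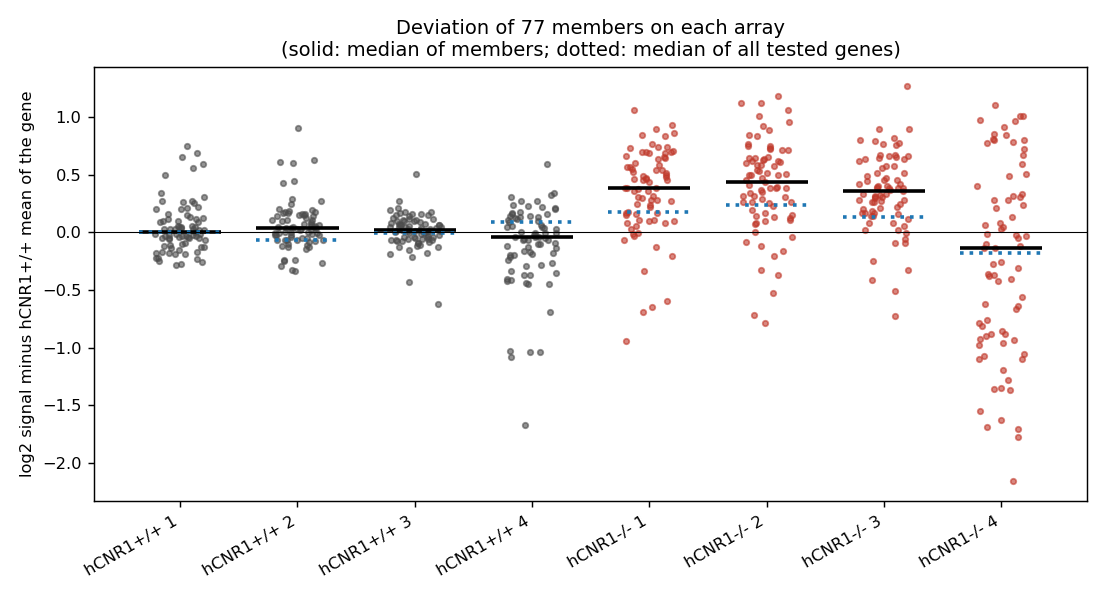
Deviation of each of the 77 members from its hCNR1+/+ mean (log2, y axis) on each array (x axis), with solid lines for the median of the members and dotted lines for the median of all tested genes. Replicates 1 to 3 of hCNR1-/- have member medians of 0.39, 0.44 and 0.36, and replicate 4 has -0.14 and a much wider scatter.

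Replicate 4 of hCNR1+/+, the next dimmest array, was more than 1 log2 unit below its group for 5 members. For 3 of these, *Mrps33*, *Mrps22* and *Mrpl33*, both replicates 4 were low. *Mrps33* had 5.03, 5.07, 4.98 and 2.80 in hCNR1+/+ and 4.55, 4.61, 4.83 and 2.92 in hCNR1-/-. Its log2 fold change was -0.24, and 0.20 without hCNR1-/- replicate 4 alone, which keeps the low replicate 4 of hCNR1+/+. Without replicate 4 of both genotypes it was -0.36, and *Mrps22* and *Mrpl33* had -0.28 and -0.13. The part of array brightness in these values was not tested.

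Without replicate 4 of hCNR1-/-, the dimmest array, 21 members (27.3%) were higher at a limma adjusted p below 0.05, where 10.1% of all genes were, and 1 was lower, where 2.92% were. The median was 0.36 over members and 0.17 over all genes, 68 members (88.3%) lay above 0, against 64.6%, and 48 (62.3%) were free of overlap upward, against 24.3%, and 3 downward, against 6.93%. All 5 members called on 8 arrays were among the 21. *Mrps28* then had the largest change, at 1.11 (SE 0.186, limma adjusted p = 0.0149). *Mrps10* had 0.91 (SE 0.143, limma adjusted p = 0.0132) and *Mrpl11*, of the stalk, 0.70 (SE 0.146, limma adjusted p = 0.0247). The 1 lower member was *Mrpl35*, counterpart of bL35, at -0.70 (SE 0.145, limma adjusted p = 0.0246), whose levels were near background. Leaving out replicate 4 of both genotypes, or this array from unscaled values, was chosen after seeing the data. Without replicate 4 of both genotypes, 26 members were higher, where 15.4% of all genes were, and 2 lower, where 4.34% were. Then 52 members (67.5%) were free of overlap upward, against 33.7% of all genes, 4 downward, against 9.11%, and 66 (85.7%) lay above 0, against 67.4%. Without scaling and without this array the median was 0.24 over members and 0.05 over all genes. There 0 members were called, where 0.0361% of all genes were called higher and 0.659% lower.

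**Figure D4:**
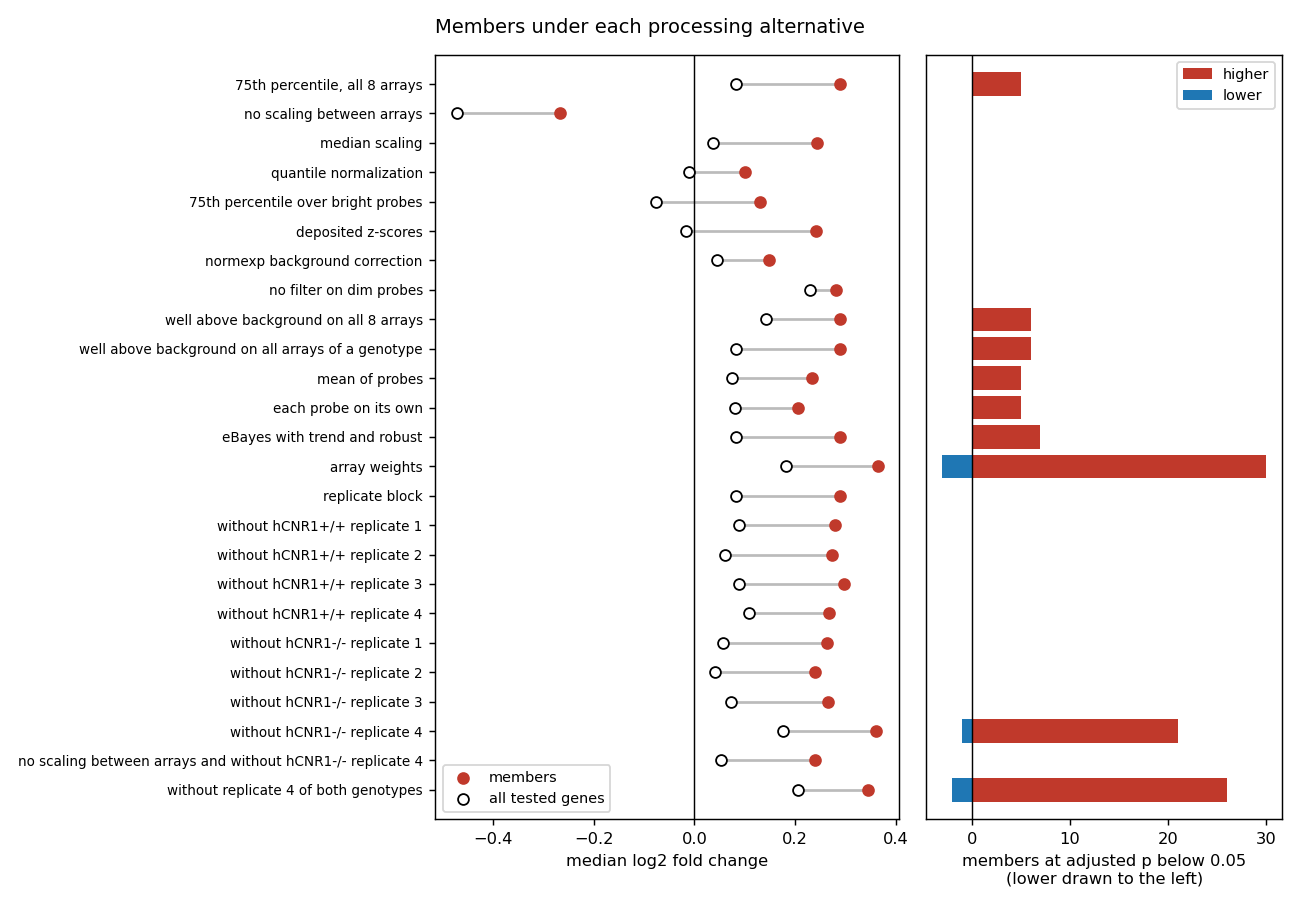
Median log2 fold change (left, x axis) of the tested members (red) and of all tested genes (open) under each processing alternative (rows), and number of members at an adjusted p below 0.05 (right, lower drawn to the left). Rows hold 77 members, except 75 with the background mark on all 8 arrays and 78 with no filter on dim probes. With each probe on its own the row holds 96 probes. The members lie to the right of all genes in each row, by little with no filter on dim probes (0.28 and 0.23). The unscaled values are at -0.27 and -0.47, and counts of higher members run from 0 to 30.

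Where a gene had more than 1 probe, the probes can be set side by side. Of 22 members with a pair of probes, 19 had both past the filter. The pair had the same sign in 14 and opposite signs in 5, and the median absolute difference of the log2 fold changes was 0.17. *Mrpl47* differed most, at -0.55 from the brighter and 0.52 from the dimmer probe, and *Mrps23* had 0.46 and -0.13. *Mrpl50* had -0.85 and -0.34. All 5 called members had 1 probe that passed the filter, so no second probe bears on them. *Mrpl50*, *Mrpl34* and *Mrps35* had a probe printed as 10 spots, whose SD within an array was between 0.0389 and 0.0932 on the log2 scale.

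**Figure D5:**
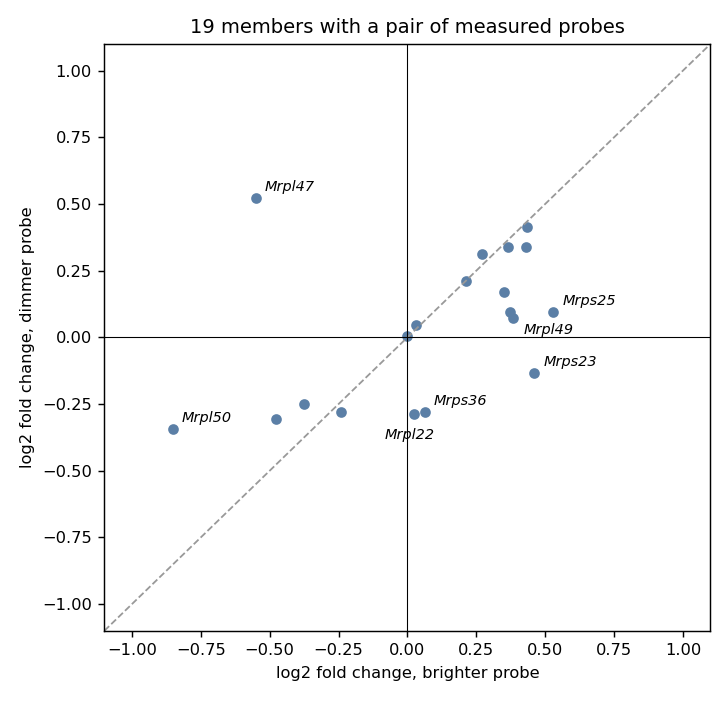
Log2 fold change from the brighter probe (x axis) and the dimmer probe (y axis) of the 19 members with a pair of measured probes; the dashed line marks equality, and pairs that differ by more than 0.3 are named. In 14 pairs both probes have the same sign, and *Mrpl47* at -0.55 and 0.52 lies farthest from the line.

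Other genes of mitochondrial translation did not move as 1 group. For comparison, the median over all tested genes was 0.08 and 56.6% of them lay above 0. At a limma adjusted p below 0.05, 2.94% of all genes were higher and 1.3% lower, and at an unadjusted p 14.7% and 6.92%. Of 5 further mitoribosome proteins under other symbols, 3 lay above 0 (median 0.64) and 0 were called (2 higher and 0 lower at an unadjusted p below 0.05). *Gadd45gip1*, *Chchd1* and *Aurkaip1* had 0.73, 0.70 and 0.64 (limma adjusted p = 0.118, 0.243 and 0.0823), and *Ptcd3* and *Dap3* had -0.04 and -0.15. Without replicate 4 of hCNR1-/- all 5 lay above 0, and *Chchd1* (1.02) and *Aurkaip1* (0.59) were called higher (limma adjusted p = 0.0157 and 0.0389). In that fit 64.6% of all genes lay above 0 and 10.1% were called higher. Of 13 translation factors 11 were tested, 4 lay above 0 (median -0.21) and 1 was called. That gene was *Mtif2*, the initiation factor that brings the first tRNA to the mitoribosome, with 6.06, 6.55, 5.92 and 6.34 in hCNR1+/+ and 4.82, 5.04, 5.10 and 5.56 in hCNR1-/-. It fell by 1.09 on the log2 scale (SE 0.237, limma adjusted p = 0.0389), with no overlap. Its log2 fold change was below 0 under all 24 alternatives (-1.64 to -0.98) and it was called under 10 of them, but not when 1 array other than hCNR1-/- replicate 4 was left out. Transcripts of *Mtif2* were lower and those of the 5 called members higher, and a link between them was not tested.

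The mitochondrial tRNA synthetases and amidotransferase, which charge tRNAs, had 10 of 18 above 0 (median 0.09), and the genes of mitoribosome assembly and rRNA processing 13 of 23 (median 0.19), with 0 called in both (at an unadjusted p below 0.05, 2 higher and 0 lower, and 2 higher and 1 lower). In the assembly list, *Malsu1* was called higher and *Mterf3* lower without replicate 4 of hCNR1-/- (0.66 and -0.69, limma adjusted p = 0.0287 and 0.0406). Among 13 tested genes of mitochondrial transcription and its nuclear regulators, 6 lay above 0 (median -0.29) and 0 were called (2 higher and 1 lower at an unadjusted p below 0.05). *Tfam*, which packages mitochondrial DNA and starts its transcription, had 1.98, 1.54, 1.40 and 1.21 in hCNR1+/+ and 0.58, 0.35, 0.85 and -1.23 in hCNR1-/-. The log2 fold change was -1.40 (SE 0.428, limma adjusted p = 0.0981), and the groups did not overlap. *Tfam*, *Mterf3* and *Gabpa* were each well above background on 4 hCNR1+/+ and 3 hCNR1-/- arrays. Without replicate 4 of hCNR1-/-, *Tfam* was called lower (-0.94, limma adjusted p = 0.0331). *Nrf1* and *Gabpa*, factors of the motifs above, had -0.40 and -0.43 with overlapping groups (limma adjusted p = 0.622 and 0.452), or 0.05 and -0.15 without that array. *Lrpprc*, which stabilises mitochondrial messages, had 0.19 (limma adjusted p = 0.756), and 0.49 without it. *Ppargc1a*, a coactivator of mitochondrial genes, was too close to background to be tested.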

How the data were processed

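Hepatocyte RNA of 4 hCNR1+/+ and 4 hCNR1-/- samples was hybridised to 1-colour Agilent arrays. Spot intensities deposited by the authors came from Agilent Feature Extraction version 12.0.3.1, with background corrected but no scaling from array to array. A deposited score column equalled, to 0.005, each array's own z-scores of log intensity. For the z-score alternative these were multiplied by the mean SD of log2 intensity over the arrays, 3.46. From log2 intensities, each array's 75th percentile over 59305 non-control spots was taken away. Outlier spots were left out and the spots of a probe averaged. Accessions were named through RefSeq (GRCm38.p6), which named 28331 of 55681 probes. A gene was taken at its brightest probe among those above background in 4 or more arrays (at least 50% of the probe's spots marked as well above it). The test was lmFit and eBayes of limma 3.58.1 in R 4.3.3, two-sided, with Benjamini-Hochberg adjustment over 11072 genes, after a test on simulated data. For single genes an exact permutation test ran over the 70 assignments of arrays to genotypes.

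Members and lists were chosen with earlier results of these data known. Named were all called members, the 8 largest rises and falls among members well above background on all arrays, 15 members fixed by role, called genes of 5 further lists and 5 regulators. Other genes were named after their values were seen. All 4 deposited arrays of each genotype were used, while the study's description of hepatocyte expression gives n = 3 mice and does not say which. Labels do not say whether samples were separate animals, so p-values measure the spread between samples, which may be technical. Alternatives were other scalings, filters, probe rules and variance models, a replicate block and each array left out. With all arrays on 1 slide and scanned on 1 day, neither could be a block. The normexp alternative (offset 50) took each spot's median signal. Same-numbered replicates did not deviate together (correlations 0.21, -0.16, -0.05 and 0.02). The number of arrays limits the precision.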

Additional observations from a re-analysis of the deposited data

Results flagged for a closer look

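In groups of 4 arrays, the gap of the highest or lowest array to its neighbour was set against the whole range of the group (Dixon's ratio, at its usual critical value). Of 166 groups examined, 28 were past it, 20 of them through replicate 4 of hCNR1-/-. The genes examined were those named in the text, many of them named after their values were seen. The count therefore cannot be set against the chance rate of about 1 in 20 groups. Members not named were not listed, such as *Mrpl41*, at 3.36 on that array (others 4.57 to 4.67). Values are log2 levels relative to the 75th percentile of the array.

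Replicate 4 of hCNR1-/- itself stood out, with a mean correlation of 0.942 with its own group, against 0.972 to 0.975 for the others. Single genes on this array followed. It held *Mrps9* at -0.19 (others 2.13 to 2.14), *Mrpl11* at 5.65 (others 6.57 to 6.68), *Mrpl3* at 2.42 (others 4.21 to 4.46) and *Mrpl45* at 3.74 (others 4.71 to 4.82). It also held *Nrf1* at 0.64 (others 2.27 to 2.58), *Lrpprc* at 2.14 (others 3.21 to 3.38), *Mrps33* at 2.92 (others 4.55 to 4.83) and *Mrpl30* at 2.31 (others 4.55 to 4.66). Further genes were *Mrpl46* at 1.56 (others 2.72 to 2.92), *Mrpl18* at 1.38 (others 3.17 to 3.29), *Mrpl40* at 3.13 (others 4.59 to 4.86) and *Mrpl22* at 4.39 (others 5.49 to 5.69). So were *Mrpl24* at 5.55 (others 6.41 to 6.53), *Mrpl48* at 4.98 (others 5.55 to 5.63), *Mrps14* at 2.98 (others 4.04 to 4.09) and *Mrpl53* at 5.66 (others 6.80 to 6.83). The last of the named genes were *Chchd1* at 5.29 (others 6.49 to 6.65), *Gadd45gip1* at 7.92 (others 7.05 to 7.19) and *Dap3* at 4.81 (others 6.07 to 6.32). *Gadd45gip1* was the gene of these that was highest there, the others were lowest.

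In hCNR1+/+, replicate 1 stood apart for *Mrpl3* at 3.93 (others 4.15 to 4.18) and *Mrps26* at 6.72 (others 6.49 to 6.52). Replicate 4 of hCNR1+/+ stood apart for *Mrps33* at 2.80 (others 4.98 to 5.07), *Mrpl40* at 3.87 (others 4.42 to 4.51) and *Mrpl52* at 6.61 (others 6.68 to 6.70), and for *Mrpl48* at 5.33 (others 5.20 to 5.21), *Mrps14* at 3.03 (others 3.47 to 3.49) and *Mtg2* at 4.80 (others 4.72 to 4.73). *Mrps33*, *Mrpl40*, *Mrpl48* and *Mrps14* were past the critical value in both genotypes through replicate 4, and *Mrpl3* through replicate 1 of hCNR1+/+ and replicate 4 of hCNR1-/-.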

How the results depend on the processing

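Of the 5 called members, each had a positive log2 fold change under all 24 alternatives, some of which could not change it. The median of the members was above 0 in all of them but the unscaled one, where it was -0.27 (all genes -0.47, since every gene is lowered alike) and 13 members lay above 0 (17.4% of all genes did). With no filter on dim probes the medians were 0.28 over members and 0.23 over all genes. There 55 of 78 members lay above 0, against 66.2% of all genes. The number of higher members at an adjusted p below 0.05 was 0 with no scaling, median scaling, quantile normalization, scaling on bright probes, the deposited z-scores, normexp correction, no filter on dim probes or the replicate block, where at most 1.18% of all genes were called higher, and 30 with array weights, where 19.7% were. It was 0 to 21 when 1 array was left out (21 without hCNR1-/- replicate 4, 0 without any other), where 0.117% to 10.1% of all genes were. It was 26 without replicate 4 of both genotypes (15.4% of all genes) and 0 unscaled without hCNR1-/- replicate 4 (0.0361%). Lower members were 3 with array weights (5.83% of all genes), 2 without both replicates 4 (4.34%) and 0 to 1 when 1 array was left out (0.226% to 2.92%). At a fold change above 2 with p below 0.05, 1 member was higher with array weights (5.17% of all genes) and 1 without both replicates 4 (4.87%). On bright probes 1 was lower (5.78%), and from z-scores, put back on a log2 scale, 1 (4.22%). When 1 array was left out 0 to 1 passed in each direction (4.19% to 5.56% of all genes upward and 2.97% to 4.32% downward). Members free of overlap upward were 0 unscaled (0.551% of all genes), 0 after median scaling (4.3%), 6 from z-scores (6.03%) and 1 after normexp (5.16%). They were 14 on bright probes (7.61%), 7 unscaled without hCNR1-/- replicate 4 (5.13%) and 52 without both replicates 4 (33.7%). When 1 array was left out they were 19 to 48 (13.6% to 24.3%). Downward they were 0 unscaled (6.37% of all genes), after median scaling (2.52%), after normexp (2.82%) and unscaled without hCNR1-/- replicate 4 (6.44%). They were 1 with the mean of probes (5.18%), 4 from z-scores (5.72%) and 4 without both replicates 4 (9.11%). After quantile normalization they were 5 (7.33%), and on bright probes 6 (10.3%). With the replicate block 13 members were higher and 2 lower at an unadjusted p below 0.05, where 13.7% and 6.61% of all genes were. The cause of these changes was not tested. Dim arrays limit what could be seen of members near background, such as *Mrpl1* and *Mrpl35*.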
